A study of Mus musculus with 14 samples.

Results

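A set of 10 vessel genes was followed through thymic lymphomas of p53-mutant mice. They were *Pecam1*, *Cdh5*, *Eng*, *Plvap*, *Icam2*, *Kdr*, *Tek*, *Tie1*, *Angpt1* and *Angpt2*, and they were chosen by name as genes of endothelial cells and of vessel growth. The array table held 12 probe sets that name one of these 10 genes and no other, out of 18264 probe sets and 10254 genes. *Eng* and *Cdh5* had 2 probe sets each and the other 8 genes had 1 each. Total RNA of 14 tumours was measured, 1 Affymetrix array per tumour. There were 5 HIF1a+/- tumours, 4 HIF1aKI/+ tumours and 5 HIF1a+/+ tumours. Every mouse, the HIF1a+/+ ones included, carried p53R270H/R270H on a mixed C57BL/6-129/SvEvTac background and was kept until it showed respiratory distress. No age is given, and the labels do not say what the KI allele is. Each tumour is labelled as a biological replicate from a mouse of its genotype. Each genotype comparison asks how gene expression differed with the *Hif1a* alleles.

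Endothelial cells line every blood vessel, and a tumour needs them for its supply of oxygen. They sense vascular endothelial growth factor through KDR and angiopoietins through TEK, hold to each other through VE-cadherin and PECAM1, and many of the genes that mark them are driven by ETS transcription factors, which bind DNA at a GGAA core. HIF1a, which is stabilised at low oxygen, induces *Vegfa* and other angiogenic genes. Lymphocytes also express some of these genes as a matter of textbook knowledge. ICAM2 is a ligand of the integrin LFA-1 on endothelium, lymphocytes and platelets, and PECAM1 is found on endothelium, platelets, myeloid cells and subsets of T cells.

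The levels below are the deposited log2 values. They fell into a low and a main mode, and the lowest point of the density between the modes, 4.41, is used as a boundary below which a level cannot be read as more than background. The mean of 28.5% of all genes lay below it. A level of 1 probe set is not comparable with that of another, so each gene is compared only with itself. Array medians ran from 7.91 to 8.03 and correlations between arrays over all genes from 0.941 to 0.974. *Hif1a* itself, read by its brightest probe set 1427418_a_at, lay between 12.24 and 12.82 in HIF1a+/- tumours, between 11.75 and 12.25 in HIF1aKI/+ tumours and between 12.44 and 13.04 in HIF1a+/+ tumours, and the labels do not say which part of the gene either allele changes. Of 12 listed T lineage genes 11 were measured, and all 11 lay above the boundary in all 14 tumours.

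Endothelial identity was thinly read by the array. *Plvap*, *Pecam1* and *Icam2* were above the boundary in all 14 tumours and *Tek* in 12, while *Eng* was above it in 1. *Cdh5*, *Kdr*, *Tie1*, *Angpt1* and *Angpt2* were above it in none. *Cdh5*, *Kdr* and *Tie1* are among the most specific markers of endothelium, so 3 defining genes lay below the boundary in every tumour. By its brighter probe set *Cdh5* ran from 1.97 to 3.79, while *Kdr* ran from 1.999 to 2.238 and *Tie1* from 2.05 to 2.10. Of 29 other endothelial marker genes 25 were measured, of which 9 were above the boundary in at least 7 tumours and 10 in none. Among those 9 were *Egfl7* and *Cd34*, above it in all 14 tumours, *Ramp2* in 12, *Flt1* in 10 and *Vwf*, the gene of von Willebrand factor, in 8, named here after their values were seen. In whole tumours, fewer cells of a type and less RNA per cell cannot be told apart.

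**Figure D1:**
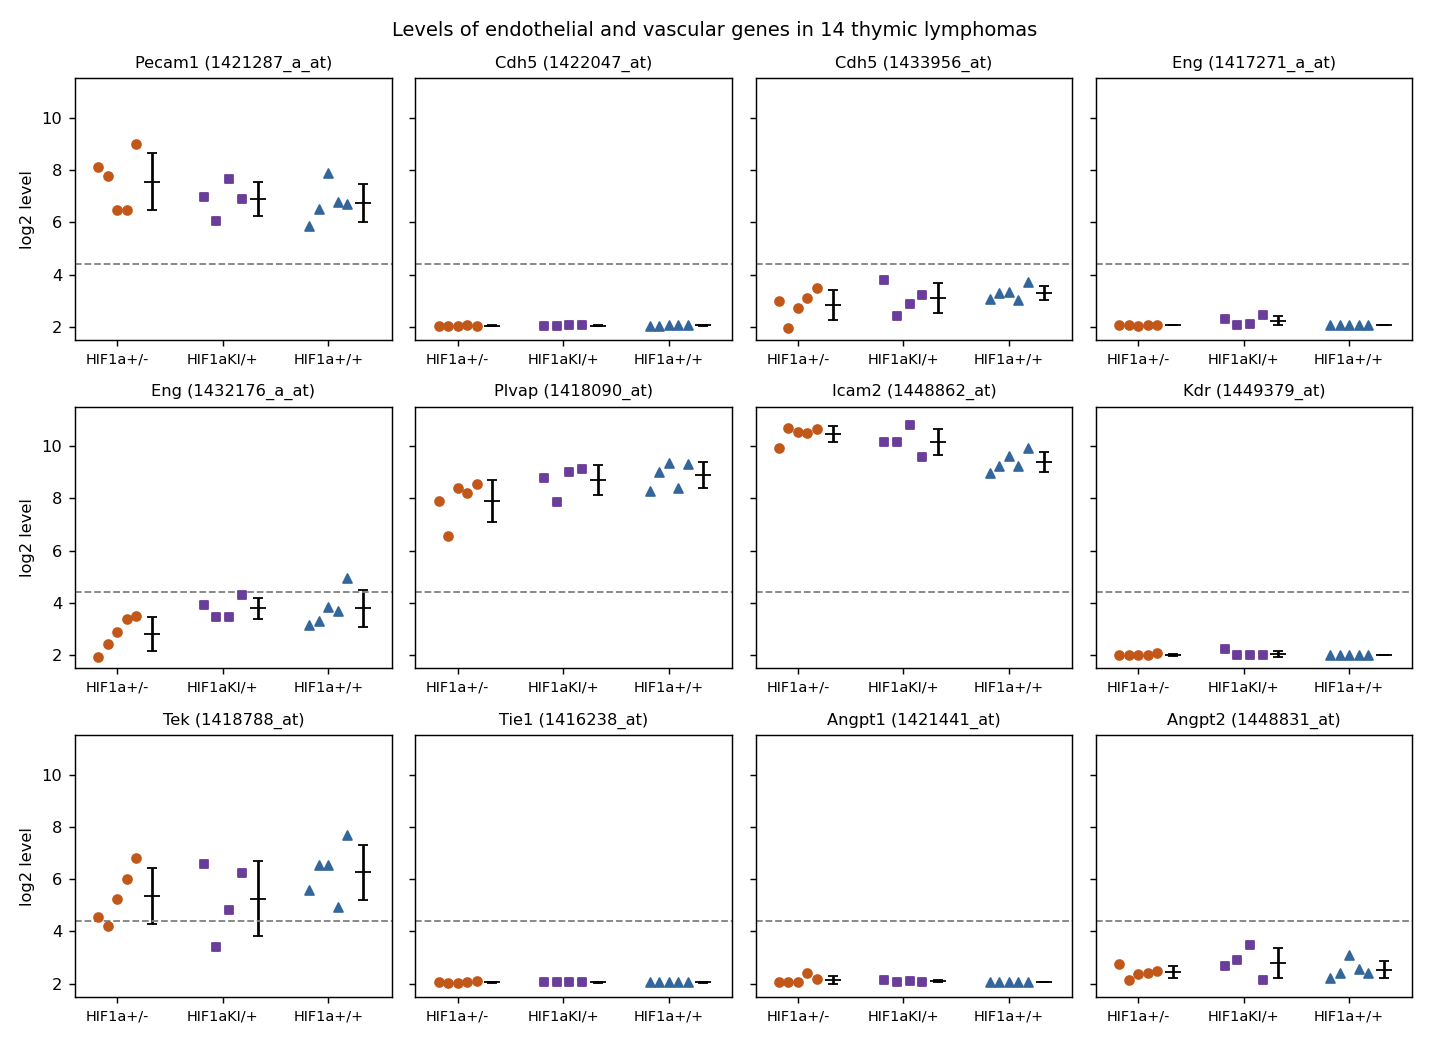
Log2 level of each of the 12 probe sets, with 1 point per tumour, the mean ± SD of each genotype beside its points and the dashed line at the boundary of 4.41. *Icam2*, *Plvap* and *Pecam1* lie above the line in all 14 tumours and *Tek* in 12, while *Kdr*, *Tie1* and *Angpt1* stay close to 2.

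Upstream sequence of 2 of the genes is shown because ETS factors are known to drive endothelial genes. Whether ETS factors have a part in how the genes varied from tumour to tumour was not tested. RefSeq windows (GRCm38.p6) were found for 4 genes, *Eng*, *Tie1*, *Tek* and *Kdr*, and the windows of *Eng* and *Tie1* lay wholly upstream of the annotated gene. They are the 250 bases before the start, at chr2:32646345-32646594 on the plus strand for *Eng* and chr4:118489850-118490099 on the minus strand for *Tie1*. Capitals mark GGAA or, for the other strand, TTCC.
Eng: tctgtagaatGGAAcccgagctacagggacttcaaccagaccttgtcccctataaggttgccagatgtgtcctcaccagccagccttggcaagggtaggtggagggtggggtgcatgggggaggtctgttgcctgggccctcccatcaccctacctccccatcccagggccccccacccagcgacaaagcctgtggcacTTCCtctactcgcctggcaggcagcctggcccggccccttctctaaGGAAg
Tie1: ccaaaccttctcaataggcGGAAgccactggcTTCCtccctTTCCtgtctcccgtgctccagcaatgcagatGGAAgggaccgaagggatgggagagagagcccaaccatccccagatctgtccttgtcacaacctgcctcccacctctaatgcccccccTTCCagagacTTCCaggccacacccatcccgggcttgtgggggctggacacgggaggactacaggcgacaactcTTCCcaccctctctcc
The window of *Tie1* held 7 such matches and that of *Eng* 3. The windows of *Kdr* and *Tek*, which overlap the annotated gene and are not printed, held 4 and 2. A match is common, since 93.5% of 32851 windows of the same length held at least 1, 54.7% at least 3 and 3.82% at least 7. The letters ACGTG, the core that HIF binds, or CACGT on the other strand, occurred in none of the 4 windows, and 16.6% of all windows held them.

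The receptors were read unevenly. *Tek* encodes the receptor of the angiopoietins. It read 4.57, 4.20, 5.22, 5.99 and 6.80 in HIF1a+/- tumours 1 to 5. It read 6.57, 3.41, 4.82 and 6.23 in HIF1aKI/+ tumours 1, 3, 4 and 5, against 5.59, 6.53, 6.55, 4.95 and 7.70 in HIF1a+/+ tumours 1 to 5. *Tek* spanned 4.29 log2 units, and the 3 genotypes overlapped, with the highest value in HIF1a+/+ tumour 5 and the lowest in HIF1aKI/+ tumour 3. HIF1a+/- tumours averaged 5.36 ± 1.06 and HIF1aKI/+ tumours 5.26 ± 1.44, against 6.26 ± 1.05 in HIF1a+/+ tumours (SD, n = 5, 4 and 5). *Kdr*, the main receptor of VEGF-A, lay between 1.999 and 2.238. *Tie1*, the orphan partner of TEK, lay between 2.05 and 2.10.

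The ligands were at background throughout. *Angpt1*, which activates TEK, ran from 2.06 to 2.40. *Angpt2*, which is released by activated endothelium and can oppose *Angpt1*, ran from 2.14 to 2.77 in HIF1a+/- tumours, from 2.13 to 3.50 in HIF1aKI/+ tumours and from 2.23 to 3.10 in HIF1a+/+ tumours. Its highest value was in HIF1aKI/+ tumour 4 and below the boundary. The limma difference for *Angpt2* was -0.11 (SE 0.24) between HIF1a+/- and HIF1a+/+ tumours, 0.26 (SE 0.25) between HIF1aKI/+ and HIF1a+/+ tumours and -0.37 (SE 0.25) between HIF1a+/- and HIF1aKI/+ tumours.

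*Plvap*, *Icam2* and *Pecam1* were above the boundary in all 14 tumours, and *Icam2* and *Pecam1* are also expressed by leukocytes. *Plvap* encodes the protein of the diaphragms of fenestrated endothelium and caveolae. It read 7.89, 6.55, 8.39, 8.20 and 8.57 in HIF1a+/- tumours 1 to 5. It read 8.80, 7.88, 9.03 and 9.11 in HIF1aKI/+ tumours 1, 3, 4 and 5, against 8.29, 9.01, 9.36, 8.42 and 9.33 in HIF1a+/+ tumours 1 to 5. HIF1a+/- tumours 1, 2 and 4 were below every HIF1a+/+ tumour and HIF1a+/- tumour 2 was the lowest of all 14, but HIF1a+/- tumours 3 and 5 lay within the HIF1a+/+ range, so the groups overlapped. The means were 7.92 ± 0.81 in HIF1a+/- tumours and 8.70 ± 0.57 in HIF1aKI/+ tumours, against 8.88 ± 0.50 in HIF1a+/+ tumours (SD, n = 5, 4 and 5).

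*Icam2*, the gene of the LFA-1 ligand that lymphocytes carry as well, read 9.94, 10.69, 10.54, 10.52 and 10.67 in HIF1a+/- tumours 1 to 5. It read 10.14, 10.15, 10.79 and 9.58 in HIF1aKI/+ tumours 1, 3, 4 and 5, against 8.96, 9.25, 9.63, 9.25 and 9.95 in HIF1a+/+ tumours 1 to 5. HIF1a+/- tumours 2 to 5 and HIF1aKI/+ tumours 1, 3 and 4 were above all HIF1a+/+ tumours, and HIF1a+/- tumour 1 met HIF1a+/+ tumour 5 at the edge. The means were 10.47 ± 0.31 in HIF1a+/- tumours and 10.16 ± 0.50 in HIF1aKI/+ tumours, against 9.41 ± 0.38 in HIF1a+/+ tumours (SD, n = 5, 4 and 5).

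*Pecam1*, the junctional adhesion gene also carried by leukocytes, read 8.10, 7.78, 6.45, 6.47 and 8.97 in HIF1a+/- tumours 1 to 5. It read 6.97, 6.05, 7.67 and 6.87 in HIF1aKI/+ tumours 1, 3, 4 and 5, against 5.85, 6.51, 7.87, 6.78 and 6.70 in HIF1a+/+ tumours 1 to 5. HIF1a+/- tumours 1 and 5 were the 2 highest, while HIF1a+/- tumours 3 and 4 were below 4 of the 5 HIF1a+/+ tumours, so the genotypes were mixed. The means were 7.56 ± 1.09 in HIF1a+/- tumours and 6.89 ± 0.66 in HIF1aKI/+ tumours, against 6.74 ± 0.73 in HIF1a+/+ tumours (SD, n = 5, 4 and 5).

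*Eng* encodes endoglin, a TGF-beta co-receptor, and *Cdh5* encodes VE-cadherin. By probe set 1432176_a_at, the brighter of its 2, *Eng* read 1.94, 2.43, 2.89, 3.40 and 3.48 in HIF1a+/- tumours 1 to 5. It read 3.92, 3.47, 3.47 and 4.32 in HIF1aKI/+ tumours 1, 3, 4 and 5, against 3.17, 3.32, 3.85, 3.69 and 4.94 in HIF1a+/+ tumours 1 to 5. HIF1a+/- tumours 1, 2 and 3 were below all HIF1a+/+ and HIF1aKI/+ tumours, and HIF1a+/+ tumour 5 alone passed the boundary. The means were 2.83 ± 0.65 in HIF1a+/- tumours and 3.80 ± 0.41 in HIF1aKI/+ tumours, against 3.79 ± 0.70 in HIF1a+/+ tumours (SD, n = 5, 4 and 5). The other *Eng* probe set, 1417271_a_at, stayed between 2.04 and 2.44. Its means were 2.071 in HIF1a+/- tumours and 2.233 in HIF1aKI/+ tumours, against 2.069 in HIF1a+/+ tumours, so it too was lower in HIF1a+/- than in HIF1aKI/+ tumours (-0.16, SE 0.06, all values at background) but not than in HIF1a+/+ tumours.

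*Cdh5* by probe set 1433956_at read 2.99, 1.97, 2.70, 3.08 and 3.50 in HIF1a+/- tumours 1 to 5. It read 3.79, 2.43, 2.89 and 3.23 in HIF1aKI/+ tumours 1, 3, 4 and 5, against 3.08, 3.29, 3.32, 3.03 and 3.72 in HIF1a+/+ tumours 1 to 5. The highest was HIF1aKI/+ tumour 1 and the lowest HIF1a+/- tumour 2, and every value was under the boundary. The other *Cdh5* probe set, 1422047_at, stayed between 2.04 and 2.06.

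No gene of the 10 passed the test in any genotype comparison. In HIF1a+/- against HIF1a+/+ tumours limma called 0 of the 10 at an adjusted p under 0.05, where 0.0195% of all genes, 2 in number, were called. At an unadjusted p under 0.05, which 7.94% of all genes met, there were 3 of the 10, *Icam2* higher and *Plvap* and *Eng* lower. Of all genes 4.30% were higher and 3.64% lower by that measure. No gene of the 10 had groups that did not overlap, as 1.47% of all genes did.

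*Icam2* differed by 1.07 (SE 0.24, 95% interval 0.54 to 1.59), a 2.09-fold higher signal in HIF1a+/- tumours. Its limma p was 0.000899 and its adjusted p 0.408. The difference was 0.95 to 1.20 when any 1 tumour was left out. *Plvap* differed by -0.96 (SE 0.39, interval -1.82 to -0.10), with a p of 0.0316 and an adjusted limma p of 0.587. Leaving out 1 tumour moved that difference between -1.13 and -0.62, and the value nearest 0 came without HIF1a+/- tumour 2. *Eng* differed by -0.96 (SE 0.38, interval -1.79 to -0.14; limma adjusted p = 0.561) while its other probe set differed by 0.00 (SE 0.06). *Pecam1* differed by 0.81 (SE 0.53), *Tek* by -0.91 (SE 0.72) and *Cdh5* by -0.44 (SE 0.30), each with an interval that includes 0.

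In HIF1aKI/+ against the same HIF1a+/+ tumours limma called 0 of the 10, as it did of all genes (0%). At an unadjusted p under 0.05, met by 4.35% of all genes (2.72% higher and 1.63% lower), *Icam2* was the only one of the 10, and in the higher direction. It differed by 0.76 (SE 0.26, interval 0.20 to 1.32), a 1.69-fold higher signal, with a limma p of 0.0123 and an adjusted p of 0.984. *Tek* differed by -1.01 (SE 0.76), and by -1.45 to -0.39 when 1 tumour was left out, nearest 0 without HIF1aKI/+ tumour 3. The other differences were small beside their intervals, with *Plvap* at -0.18 (interval -1.09 to 0.74), *Pecam1* at 0.15 (interval -1.08 to 1.37) and *Eng* at 0.00 (interval -0.87 to 0.87). The other *Eng* probe set, 1417271_a_at, differed by 0.16 (SE 0.06, interval 0.03 to 0.30), with all values at background. Its limma p was 0.0228 and its adjusted p 0.9999. No gene of the 10 had groups that did not overlap, as 1.76% of all genes did. Both comparisons rest on the same 5 HIF1a+/+ tumours, so a shared direction such as that of *Icam2* is not a second measurement.

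Between HIF1a+/- and HIF1aKI/+ tumours, which share no tumour, 0 of the 10 and 0% of all genes were called. At an unadjusted p under 0.05, met by 3.06% of all genes (1.41% higher and 1.65% lower), *Eng* was the only one of the 10, at -0.97 (SE 0.40, adjusted limma p above 0.99). *Plvap* differed by -0.79 (SE 0.42), *Pecam1* by 0.67 (SE 0.56), *Icam2* by 0.31 (interval -0.25 to 0.87), *Cdh5* by -0.24 (SE 0.31) and *Tek* by 0.10 (SE 0.76). No gene of the 10 had groups that did not overlap, as 0.673% of all genes did. In the F test over the 3 genotypes, *Icam2* had an unadjusted limma p of 0.0027 and an adjusted p of 0.802. *Eng* had 0.0411 and 0.895, and no other of the 10 genes had an unadjusted p under 0.05. By that test 0% of all genes were called, while 5.43% met an unadjusted p under 0.05.

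**Figure D2:**
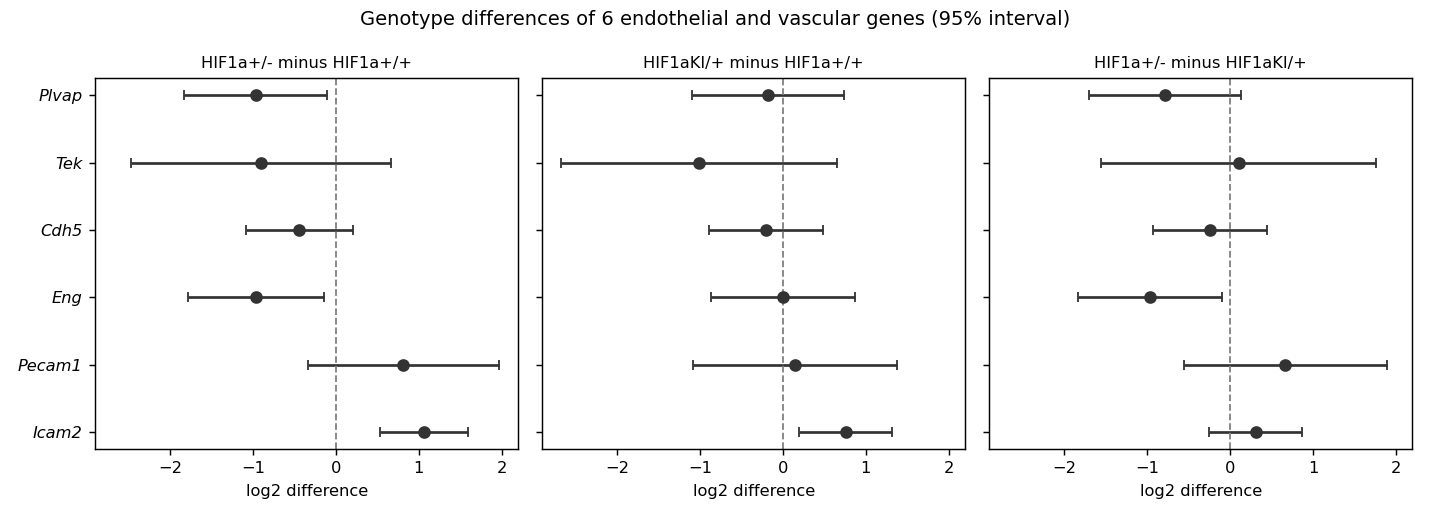
Difference in log2 level (horizontal axis) of 6 of the genes in each genotype comparison, 1 panel per comparison, with points at the limma estimates and bars for the 95% intervals. The interval of *Icam2* lies above 0 in HIF1a+/- and in HIF1aKI/+ tumours against HIF1a+/+ tumours, and no gene passed an adjusted p under 0.05.

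Across tumours some of these genes varied together. The 45 pairs of the 10 genes were correlated over the 14 tumours with permutation tests of 100000 resamples, adjusted over the 45. *Cdh5* and *Tek* had r = 0.87 (permutation p = 3e-05, adjusted p = 0.00135) and rho = 0.95 (adjusted p = 0.0009). Without the 2 tumours farthest from the median of *Cdh5*, r was 0.94, and on residuals from the genotype means it was 0.88 (adjusted p = 0.0036). *Cdh5* and *Plvap* had r = 0.80 (permutation adjusted p = 0.0225) and rho = 0.69 (adjusted p = 0.0296). Within genotypes their r was 0.78 (permutation adjusted p = 0.0357). No other pair passed in r over the 14 tumours. In rho 15 of the 45 pairs passed, and 9 of the 15 included *Kdr*, *Tie1* or *Angpt1*, whose values all lay at background. Of the rest, only *Plvap* with *Tek* held neither *Cdh5* nor *Eng*, which were above the boundary in 0 and 1 of the 14 tumours. *Kdr* with *Tie1* had rho = 0.88 and r = 0.58 (permutation adjusted p = 0.0015 for rho and 0.319 for r). *Kdr* ran only from 1.999 to 2.238 and *Tie1* from 2.05 to 2.10, so that rho ranks background values and cannot be read as shared expression. *Eng* with *Plvap* and *Plvap* with *Tek* passed in rho too, at 0.76 and 0.72 (permutation adjusted p = 0.0213 for both).

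Whether *Cdh5* with *Plvap* passed depended on single tumours, while its r stayed between 0.62 and 0.85 when any 1 tumour was left out. With the 2 farthest tumours left out its r was 0.66 (permutation adjusted p = 0.165). With HIF1a+/- tumour 2 left out it was 0.62 (permutation adjusted p = 0.199), and with HIF1a+/+ tumour 5 left out 0.78 (permutation adjusted p = 0.0752). *Plvap* with *Tek* had r = 0.71 and *Eng* with *Plvap* r = 0.73 (permutation adjusted p = 0.0506 for both). On residuals from the genotype means *Plvap* with *Tek* had r = 0.77 and *Eng* with *Tek* r = 0.75 (permutation adjusted p = 0.0173 and 0.031). With other tumours left out the number of pairs that passed was 4 without HIF1a+/- tumour 1 or HIF1aKI/+ tumour 4, 5 without HIF1a+/- tumour 4 or HIF1aKI/+ tumour 3, 6 without HIF1a+/- tumour 5, and 1 without HIF1a+/- tumour 2 or HIF1a+/+ tumour 5. *Cdh5* was below the boundary in all 14 tumours.

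*Icam2* and *Pecam1* showed no relation to these genes that passed, and several values changed sign when the genotype means were removed. *Icam2* had r = -0.32 with *Plvap*, -0.30 with *Cdh5*, -0.21 with *Eng* and -0.20 with *Tek*. On residuals from the genotype means these were 0.19, 0.01, 0.39 and 0.18 in the same order of genes. *Pecam1* had r = -0.05 with *Plvap*, 0.11 with *Tek*, 0.08 with *Cdh5* and -0.23 with *Eng*, and 0.28, 0.26, 0.29 and 0.06 on residuals. None of these values passed. *Icam2* and *Pecam1* had r = 0.45 with each other (permutation adjusted p = 0.378).

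**Figure D3:**
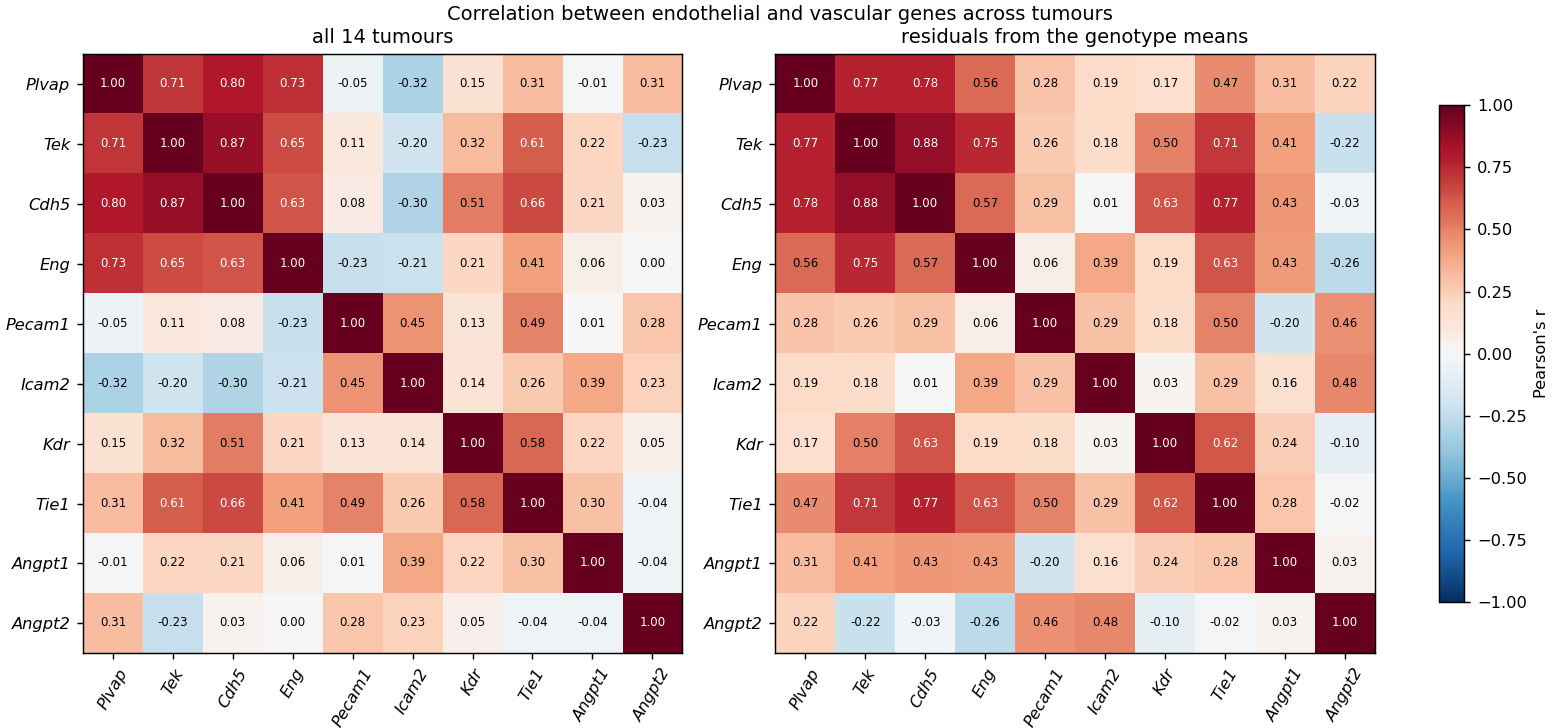
Pearson's r for each pair of the 10 genes over the 14 tumours, on the left for the log2 levels and on the right for residuals from the genotype means. *Plvap*, *Tek*, *Cdh5* and *Eng* form a block of positive values of 0.63 to 0.87 on the left, and *Icam2* is negative with each of these 4 on the left and positive with each on the right.

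**Figure D4:**
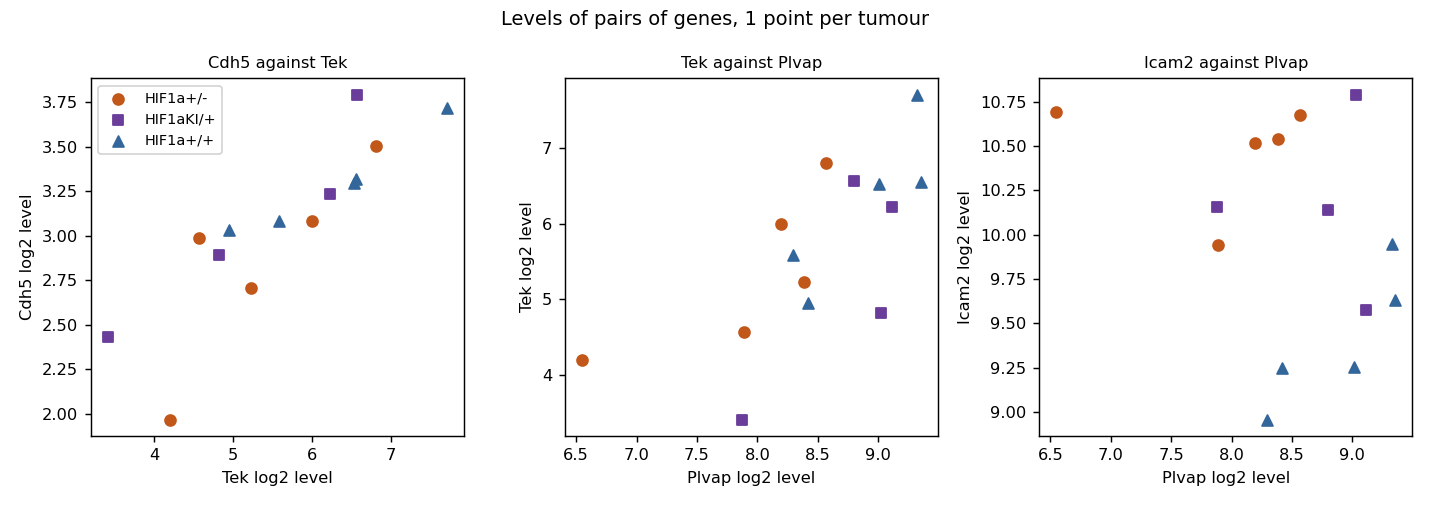
Log2 levels of 3 pairs of genes, 1 point per tumour and 1 colour and shape per genotype. *Cdh5* climbs with *Tek* over all 14 tumours, *Tek* climbs with *Plvap* more loosely, and *Icam2* shows no such line with *Plvap*.

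Of the 10 genes, 6 were also set against the means of 7 marker lists. These 42 relations were added after values had been seen, and 4 passed in r. All 4 were with the mean of the 25 other endothelial genes. *Tek* had r = 0.88 and *Cdh5* r = 0.85 (permutation adjusted p = 0.00273 for both). *Plvap* had r = 0.76 and *Eng* r = 0.73 (permutation adjusted p = 0.0224 and 0.0376). In rho *Tek* and *Cdh5* passed with that list, at 0.92 and 0.87 (permutation adjusted p = 0.00126 and 0.00273). *Plvap* and *Eng* did not pass in rho, at 0.70 and 0.61 (permutation adjusted p = 0.0694 and 0.1355). Within genotypes *Tek* had r = 0.88 and *Cdh5* r = 0.83, and both passed there and in every fit without 1 tumour. *Plvap* had r = 0.72 within genotypes and did not pass (permutation adjusted p = 0.104). It also did not pass when HIF1a+/- tumour 1 was left out, at r = 0.74, or HIF1a+/- tumour 2, at r = 0.66 (permutation adjusted p = 0.0601 and 0.0781). *Eng* had r = 0.72 within genotypes and did not pass (permutation adjusted p = 0.104). It did not pass either when HIF1a+/- tumour 1 or 2, HIF1aKI/+ tumour 1 or HIF1a+/+ tumour 5 was left out, at r = 0.72, 0.67, 0.72 and 0.59. *Pecam1* had r = -0.04 and *Icam2* r = -0.26 with that list, and 0.18 and 0.22 within genotypes, none of which passed.

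The lymphocyte side of *Icam2* and *Pecam1* was looked at through the T lineage genes. *Icam2* had r = 0.60 with the mean of the 11 measured T lineage genes (permutation adjusted p = 0.118), and 0.42 within genotypes. *Pecam1* had r = 0.50 (permutation adjusted p = 0.237). The T lineage mean ran from 12.20 to 12.77 in HIF1a+/- tumours and from 12.45 to 12.59 in HIF1aKI/+ tumours, against 12.01 to 12.72 in HIF1a+/+ tumours. Neither relation passed, and the part of T cell RNA in the difference of *Icam2* was not tested.

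Markers of 3 other cell types had the next strongest relations, and none of them passed in r. *Icam2* had r = -0.67 with the fibroblast and matrix mean (permutation adjusted p = 0.0633) and -0.28 within genotypes. *Pecam1* had r = -0.69 with the macrophage mean (permutation adjusted p = 0.0557). *Plvap* had r = 0.70 with the adipocyte mean (permutation adjusted p = 0.0557) and passed in rho, at 0.84 (permutation adjusted p = 0.00448), with r = 0.62 within genotypes (permutation adjusted p = 0.0239).

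The 11 measured fibroblast genes averaged 7.97 to 9.15 in HIF1a+/- tumours and 8.42 to 9.61 in HIF1aKI/+ tumours, against 8.65 to 10.31 in HIF1a+/+ tumours, with 10 of 11 lower in HIF1a+/- than in HIF1a+/+ tumours. The 14 macrophage genes averaged 7.65 to 8.63, 7.95 to 9.07 and 8.62 to 9.90 in the same order of genotypes, and 12 of 14 were lower in HIF1a+/- than in HIF1a+/+ tumours, among them *Stab1*, 1 of the 2 genes that limma called. The 6 measured adipocyte genes averaged 4.17 to 5.12, 4.31 to 5.56 and 4.20 to 8.12, with all 6 lower in HIF1a+/- than in HIF1a+/+ tumours. Of all genes 53.8% were lower in that comparison. *Fabp4* was above the boundary in all 14 tumours, *Pparg* in 11, *Car3* in 7, *Retn* in 3, *Adipoq* in 1 and *Lipe* in none. The part of these cells in the differences of *Icam2* and *Plvap* was not tested.

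**Figure D5:**
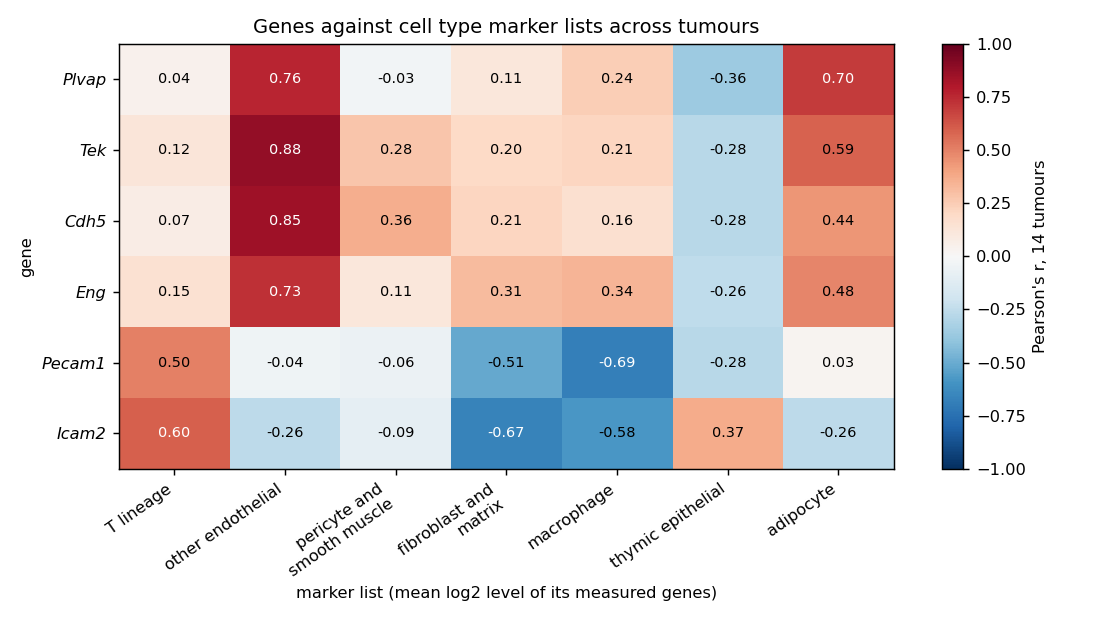
Pearson's r over the 14 tumours between the log2 level of 6 genes (rows) and the mean log2 level of the measured genes of 7 marker lists (columns). *Tek*, *Cdh5*, *Plvap* and *Eng* have values of 0.73 to 0.88 with the other endothelial list, while *Pecam1* and *Icam2* have -0.04 and -0.26.

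The other endothelial genes leaned lower without a call. Their mean was 3.71 to 4.77 in HIF1a+/- tumours and 4.10 to 4.64 in HIF1aKI/+ tumours, against 4.21 to 5.13 in HIF1a+/+ tumours, so the genotypes overlapped. Of the 25 measured, 23 were lower in HIF1a+/- than in HIF1a+/+ tumours, where 53.8% of all genes were lower, and their median difference was -0.31 against 0.00 over all genes. Of the 25, 10 were below the boundary in all 14 tumours, and the sign of a difference between background values says little. The 25 were read in the same tumours, so the count does not stand for 25 separate measurements. None of the 25 passed, and 0 reached an unadjusted limma p under 0.05. *Cd34*, a surface sialomucin, averaged 6.24 in HIF1a+/- tumours and 7.24 in HIF1a+/+ tumours. The difference of *Ptprb*, the phosphatase that acts on TEK, was -0.65 (SE 0.44), that of *Emcn*, a sialomucin of capillaries and veins, -0.65 (SE 0.45) and that of *Esam*, an endothelial adhesion gene below the boundary in all 14 tumours, -0.26 (SE 0.18). In HIF1aKI/+ against HIF1a+/+ tumours 20 of 25 were lower, with a median of -0.17, where 52.3% of all genes were lower. Between HIF1a+/- and HIF1aKI/+ tumours 18 of 25 were lower, with a median of -0.07, where 53.1% of all genes were lower.

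The pathway genes around the 10 showed no call over all genes. Their lists share genes with each other and with the other endothelial list, such as *Flt1* and *Ptprb*, so the counts are not separate. Some listed genes lay below the boundary in all tumours. Of all genes 53.8% were lower in HIF1a+/- than in HIF1a+/+ tumours and 52.3% in HIF1aKI/+ than in HIF1a+/+ tumours. Of 9 VEGF family genes 7 were lower in HIF1a+/- than in HIF1a+/+ tumours. *Vegfd*, a lymphatic growth factor, differed by -1.72 (SE 0.66, limma adjusted p = 0.554), and *Vegfa* by 0.42 (SE 0.33). In HIF1aKI/+ against HIF1a+/+ tumours *Vegfd* differed by -1.89 (SE 0.70) and *Vegfa* by 0.76 (SE 0.35, limma adjusted p = 0.984 for both). The mean of *Vegfd* lay below the boundary in HIF1a+/+ tumours too.

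Of 13 measured genes of the angiopoietin and Tie pathway 10 were lower in HIF1a+/- than in HIF1a+/+ tumours and none reached an unadjusted limma p under 0.05. *Itga5*, an integrin subunit, differed by -1.70 (SE 0.65) between HIF1a+/- and HIF1aKI/+ tumours. Of 10 measured vascular genes induced by hypoxia 7 were lower, among them *Cxcl12*, a chemokine of stromal cells, at -1.32 (SE 0.49, limma adjusted p = 0.54). Of 11 measured ETS and partner factors of vessels and blood 6 were higher and 5 lower, and 8 were above the boundary in all tumours, such as *Ets1* at 13.18 in HIF1a+/- tumours and 13.04 in HIF1a+/+ tumours.

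Of 14 measured TGF-beta genes 11 were higher in HIF1a+/- than in HIF1a+/+ tumours, with *Smad1*, a signal carrier of the BMP branch, at 1.72 (SE 0.71, limma adjusted p = 0.592). Of 17 measured junction and adhesion partners 11 were lower, and the plakoglobin gene *Jup* was higher by 2.38 (SE 0.68, limma adjusted p = 0.474). *Jup* is also an epithelial gene. All 8 measured thymic epithelial markers were higher in HIF1a+/- tumours, with list means of 6.03 to 8.56 against 3.70 to 8.25 in HIF1a+/+ tumours, and their part in *Jup* was not tested. Of 7 Notch genes of vessels 5 were lower, with *Hey2* at -0.22 (SE 0.09) and below the boundary. In HIF1aKI/+ against HIF1a+/+ tumours 6 of the 9 VEGF family genes, 8 of the 13 angiopoietin and Tie genes, 6 of the 10 hypoxia genes, 7 of the 11 ETS genes, 12 of the 17 junction genes and 4 of the 7 Notch genes were lower, and 10 of the 14 TGF-beta genes were higher.

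Markers of platelets, which carry both PECAM1 and ICAM2, were thinly measured. Of 10 listed genes 3 were measured, and *Pf4*, the only one above the boundary in all 14 tumours, averaged 9.94 in HIF1a+/- tumours and 10.64 in HIF1a+/+ tumours (difference -0.70, SE 0.65). Of 8 measured pericyte and smooth muscle genes 5 were higher and 3 lower in HIF1a+/- than in HIF1a+/+ tumours, and 0 reached an unadjusted limma p under 0.05.

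The genes nearest to each well measured member were taken among 7274 genes with a median above the boundary, by r over the 14 tumours. *Plvap* was nearest to *Nrp1* (0.87), *Rbbp6* (0.85) and *Dync1li1* (0.83). *Tek* was nearest to *Fbln5* (0.89), *Mgll* (0.85) and *Cavin2* (0.85). *Icam2* was nearest to *Dusp19* (0.90), *Ube2b* (0.89) and *Aldh3a2* (0.89), and *Pecam1* to *Ganc* (0.87), *Celf2* (0.86) and *Lonp2* (0.85). Such values are ordinary here, since the median over those 7274 genes of the highest r to another gene was 0.874.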

How the data were processed

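Total RNA was amplified and hybridised to 1 array per tumour, per the labels. The authors deposited log2 values, and the submitters' processing notes name GCRMA and Partek without versions. Neither the labels nor those notes name a genome build. GCRMA sets weak probe sets to a common low value, so differences near background are compressed. Probe sets naming exactly 1 gene (16602 of 18264) were used, with 603 naming several and 1059 naming none. Each gene was represented by the probe set with the highest mean. limma 3.58.1 (R 4.3.3) fitted 1 mean per genotype over all 14 arrays with 11 residual degrees of freedom, and p-values were adjusted by Benjamini-Hochberg over 10254 genes at 0.05. The procedure was tested on simulated data. The depth of an array is fixed by its probes, and the number of arrays limits the precision. Correlations used permutation tests (SciPy 1.17.1, NumPy 2.4.6). The 10 genes, the lists and the tests were chosen with earlier results of these data known. All 10 genes are named, up to 4 genes of each list by smallest p, and the 3 nearest genes of each gene with a median above the boundary. Outside that rule, every measured adipocyte gene is named, as are the endothelial genes chosen after their values were seen. Same-numbered tumours of different genotype did not vary together (mean residual correlation -0.0060 over 13 pairs, from -0.11 to 0.14). By this measure the numbers showed no pairing, and a pairing that leaves no such correlation would not be seen. P-values measure the spread between the tumours that the labels call biological replicates.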

Additional observations from a re-analysis of the deposited data

Results flagged for a closer look

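In 6 of 36 groups of values 1 tumour stood apart from the others of its genotype by Dixon's criterion, where chance gives about 1 in 20. *Icam2* was 9.94 in HIF1a+/- tumour 1, below the next lowest HIF1a+/- tumour at 10.52. The other 5 were below the boundary of 4.41. *Eng* probe set 1417271_a_at was 2.04 in HIF1a+/- tumour 3, where the next was 2.08. *Kdr* was 2.07 in HIF1a+/- tumour 5 and 2.24 in HIF1aKI/+ tumour 1, each above the others of its genotype. *Tie1* was 2.10 in HIF1a+/- tumour 5 and 2.07 in HIF1a+/+ tumour 5, again the highest of its genotype.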

How the results depend on the processing

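None of the 10 genes passed an adjusted p under 0.05 in any alternative run, with any 1 tumour left out included. Of all genes 2 were called in HIF1a+/- against HIF1a+/+ tumours. That count was 0 with the filter on level, with quantile normalization, with arrays centred on their medians, with only the 2 genotypes compared, with every probe set tested singly and with the replicate block, and 1 with trend and robust moderation. Leaving out 1 tumour gave 0 to 1 in that comparison, 0 to 2 in HIF1aKI/+ against HIF1a+/+ tumours and 0 to 1 in HIF1a+/- against HIF1aKI/+ tumours. The 2 pairs of genes that passed became 8 on residuals from the genotype means and 1 without the 2 farthest tumours. They became 1 to 6 when each tumour was left out in turn, an alternative chosen after seeing the data. The 8 included *Cdh5* with *Kdr*, *Cdh5* with *Tie1*, *Kdr* with *Tie1* and *Tek* with *Tie1*, where *Kdr* and *Tie1* lay at background. Of the 8, only *Plvap* with *Tek* was free of *Cdh5*, *Eng*, *Kdr* and *Tie1*.

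*Icam2* in HIF1a+/- against HIF1a+/+ tumours stayed between 1.02 and 1.07 in the other settings, and by an exact permutation test its unadjusted p was 0.0159. Small differences in HIF1aKI/+ against HIF1a+/+ tumours changed sign. *Eng* was -0.0659 with quantile normalization, -0.0348 with centred arrays and -0.1081 with the replicate block, and *Pecam1* was -0.2168 with array weights. Leaving out 1 tumour gave -0.44 to 0.0164 for *Cdh5*, -0.17 to 0.29 for *Eng*, -0.11 to 0.43 for *Pecam1* and -0.32 to 0.10 for *Plvap*, and -0.51 to 0.54 for *Tek* in HIF1a+/- against HIF1aKI/+ tumours. The replicate block changed no other call of the 10 genes. The cause of these changes was not tested. The mean of the 2 *Eng* probe sets gave -0.48 in HIF1a+/- against HIF1a+/+ tumours, and with the filter on level *Cdh5* and *Eng* had no value. Signal near background limits what can be read of 6 of the 10 genes.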
